A study of Homo sapiens with 18 samples.

Results

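The genes described here are the nuclear genes of oxidative phosphorylation, measured in HT29 colorectal adenocarcinoma cells and in HTOXAR3, a subline of HT29 that acquired resistance to oxaliplatin (OXA) under continuous exposure to increasing concentrations of the drug. They were taken by gene name, as every name on the array that begins with NDUFA, NDUFB, NDUFC, NDUFS or NDUFV and a number, with UQCR, with COX4 to COX8 and a letter A to C, or with ATP5. This rule found 82 of the 36204 gene names, carried by 108 of 50599 probes and 153 of 58717 spots, and it used no measured value. By complex, 36 names are subunits of complex I, 8 of complex III, 17 of complex IV and 15 of complex V, with *COX7A2L* and *NDUFA4L2*, relatives of complex IV subunits, counted with that complex and referred to as subunits here. The other 6 are names that the rule also takes in (the antisense RNAs *NDUFA6-AS1* and *NDUFB2-AS1*, the pseudogene *UQCRBP1*, the near copy *ATP5L2*, and *ATP5S* and *ATP5SL*). Each line contributed 3 groups of 3 arrays, namely untreated cells, cells exposed to OXA and cells exposed to OXA plus Curcumin, both exposures lasting 24 h. The OXA concentration was 10 µM in HT29 but 30 µM in HTOXAR3, whereas that of Curcumin was 10 µM throughout, so treated cells of the lines differ in dose as well. HTOXAR3 is 1 subline of 1 parental line, and cells given Curcumin alone were not analysed here, so the effect of Curcumin could be read only on top of OXA.

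Oxidative phosphorylation moves electrons from NADH and succinate along the complexes of the inner mitochondrial membrane to oxygen, and the proton gradient made on the way drives ATP synthase, which is complex V. Complex I takes electrons from NADH through a chain of iron-sulfur clusters held by its core subunits, complex III passes them on to cytochrome c, and complex IV reduces oxygen. Most subunits are encoded in the nucleus and imported, a small set is encoded by mitochondrial DNA, and the enzymes have to be built from both. Tumour cells of the colon can use glycolysis and oxidative phosphorylation side by side, and the nuclear genes are known as broadly and steadily expressed.

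Of the 82 names, 78 were well above background on all 18 arrays. *COX7A1*, *COX7B2*, *COX8C* and *NDUFA4L2* were not, and no member reading was saturated. By array, 52.4% to 63.6% of the spots that measure transcripts passed this criterion. Of 14 markers of colorectal epithelium 12 were well above background on all arrays, *CDX2* on 10 and *CEACAM5* on 16 of 18. Of the other cell types, 0 of 6 fibroblast markers, 2 of 4 endothelial markers and 5 of 6 leukocyte markers passed on all arrays, the last including *CD14* and *CD68*, and their part in the values below was not tested. In RNA from a whole culture, less RNA per cell and fewer cells of a kind cannot be told apart. The labels call the arrays of a group biological replicates. The arrays lay on 3 slides, of which slide 1 held only replicate 1 of untreated and of OXA-treated HT29. In every comparison below, all members that passed the test had the same direction within each slide that held both groups. The calls came from these same arrays, so this could hardly fail and does not test for a slide effect.

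A member was called when its limma test, over all gene names, gave a Benjamini-Yekutieli (BY) adjusted p below 0.05 together with a fold change above 1.2, and values are log2 intensities or log2 differences, with the standard error (SE) of the fit. Across the 7 comparisons of treatments or lines, 36 of the 82 members were called at least once, namely 22 of 36 in complex I, 3 of 8 in complex III, 4 of 17 in complex IV, 4 of 15 in complex V and 3 of the other 6. These were 43.9% of the members, or 46.2% of the 78 well above background, beside 31.1% of all names and 58.5% of the names well above background on all 18 arrays. Among the calls of subunits, the one of largest size was a fall of 0.75 on the log2 scale.

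**Figure D1:**
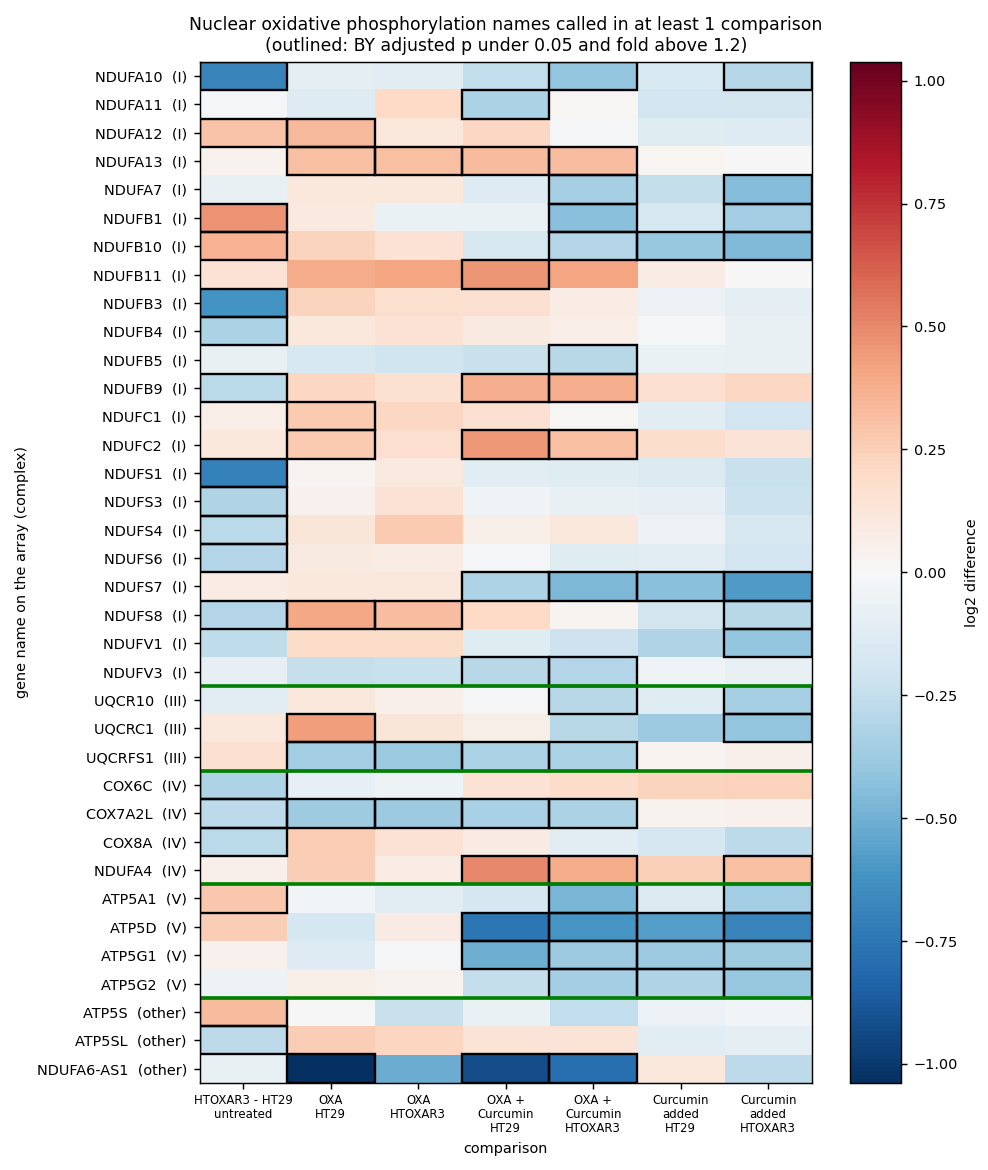
Log2 difference (colour, blue for lower and red for higher) of the 36 members called in at least 1 comparison, in rows by complex, in each of 7 comparisons in columns. Outlined cells passed the test. The blue outlined cells of *ATP5D*, *NDUFS7* and *NDUFB10* stand in the columns for the addition of Curcumin in both lines, and those of *NDUFS1*, *NDUFA10* and *NDUFB3* in the column for the untreated lines.

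Without drug, the question was how the resistant subline differs from its parent. In untreated HTOXAR3, 13 members were lower and 5 higher than in untreated HT29. Of the 13 lower members 9 belonged to complex I, among them the core subunits *NDUFS1*, *NDUFS3* and *NDUFS8*, 3 to complex IV, and 1 was *ATP5SL*. The higher members were *NDUFB1*, *NDUFB10* and *NDUFA12* of complex I, *ATP5A1* of complex V and *ATP5S*. For *NDUFA12* (0.30) a second bright probe gave 0.11, and with the mean of both the call was lost (0.20, BY adjusted p = 0.137). Complex III had 0 called of 8. The calls made up 15.9% (lower) and 6.1% (higher) of the members. Over all names, 5.28% were called lower and 6.26% higher, and over the names well above background on all 18 arrays, 10.1% and 11.5%. The median log2 difference of the members was -0.00 beside -0.02 over those names.

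*NDUFS1*, the largest core subunit of complex I and the carrier of several of its iron-sulfur clusters, read 14.54, 14.51 and 14.65 on the arrays of untreated HT29 and 13.87, 13.83 and 13.90 on those of untreated HTOXAR3. The lines did not overlap, and the difference was -0.70 (SE 0.05, BY adjusted p = 2.57e-06). *NDUFA10*, an accessory subunit on the matrix side, read 13.84, 13.80 and 13.85 in HT29 and 13.17, 13.15 and 13.08 in HTOXAR3, again without overlap (-0.70, SE 0.05, BY adjusted p = 8.1e-07). Its other probes also lay lower in HTOXAR3 (-0.56 and -0.24). *NDUFB3*, of the membrane arm, read 15.06, 14.99 and 14.86 in HT29 against 14.45, 14.33 and 14.27 in HTOXAR3 (-0.62, SE 0.06, BY adjusted p = 7.56e-05). For these genes the gap between the lines stayed under both treatments, since every HTOXAR3 array lay below every HT29 array. The other lower members had differences between -0.33 (*NDUFB4*) and -0.27 (*COX7A2L*), the latter with a second bright probe at -0.13.

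On the array's GRCh37 map the probes of *NDUFS1*, *NDUFA10* and *NDUFB3* all lie on chromosome 2, at 206988874 to 206988933, 240900158 to 240900217 and 201950378 to 201950437. Neighbouring genes were lower too. Within 2 Mb on either side of *NDUFB3*, 22 of 36 other names well above background were called lower and 2 higher, with a median of -0.52. Around *NDUFA10* 20 of 48 were called lower (median -0.38), and around *NDUFS1* 8 of 19 (median -0.43). *NDUFB1*, an accessory subunit of the membrane arm encoded on chromosome 14, showed the opposite. It read 14.41, 14.33 and 14.33 in HT29 and 14.85, 14.84 and 14.78 in HTOXAR3 (0.47, SE 0.08, BY adjusted p = 0.00423), and 17 of its 31 neighbours were called higher and 0 lower (median 0.44). *ATP5S*, also on chromosome 14, was higher by 0.33, with 10 of 27 neighbours higher, but a second probe, nearly as bright, gave 0.03. Under the processed signal, the scanner's own output scaled to the 75th percentile of each array, the difference was 0.04 and not called. That value is close to the second probe's. The probe of highest mean was picked anew under this scaling, so the probe taken for *ATP5S* may have changed with it. The parts of probe and scaling were not tested separately. Over whole chromosomes the median of all names well above background was 0.29 on chromosome 14, -0.18 on chromosome 11, -0.15 on chromosome 8 and -0.10 on chromosome 2. Chromosome 11 held *NDUFS3*, *NDUFS8* and *COX8A* among the lower members, and chromosome 8 *COX6C* and *NDUFB9*. The median of the neighbours was below 0 for 12 of the 13 lower members, among them *NDUFB4* (-0.24) and *NDUFS6* (-0.17), and above 0 for 4 of the 5 higher ones. The exceptions were *ATP5SL*, whose 76 neighbours had a median of 0.03, and *ATP5A1* (-0.00), and for *NDUFB10*, which was 0.36 higher, the median of 167 neighbours was 0.03. Among the 12, the median was only -0.08 for *COX7A2L*, with 3 of 21 neighbours higher and 2 lower, and -0.09 for *NDUFS4*, with 2 and 2 of 17. Over all names well above background it was -0.02, and no matching share is given for all called names. These neighbour counts were made after the values had been seen, and their part in the differences of the members was not tested.

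**Figure D2:**
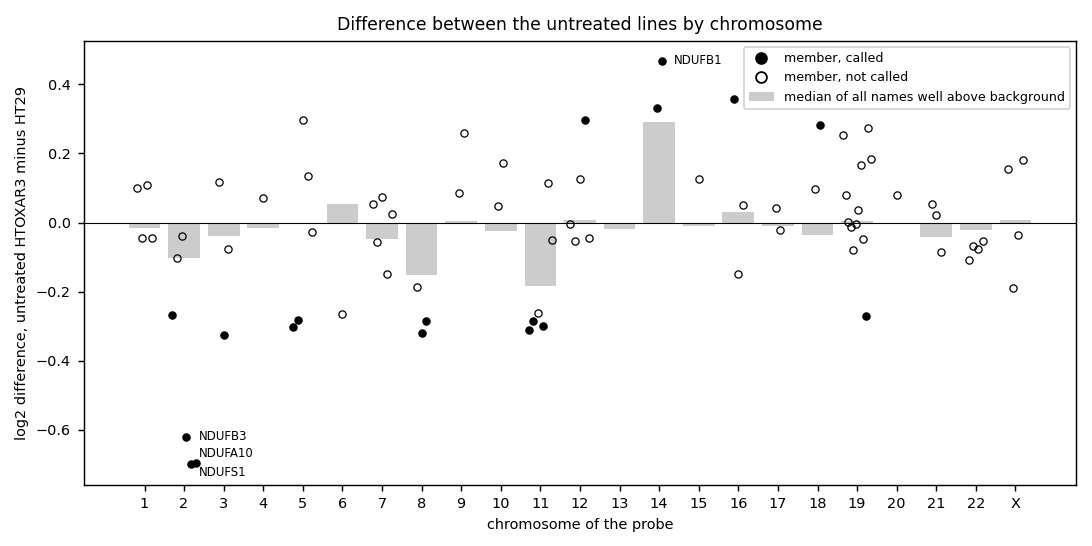
Log2 difference between untreated HTOXAR3 and untreated HT29 (vertical axis) of the members well above background, by the chromosome of the probe (horizontal axis), as filled circles where called and open circles where not, over grey bars for the median of all names well above background on that chromosome. The tallest bar, 0.29, is that of chromosome 14, on which both members were called higher, and the 3 lowest members, between -0.70 and -0.62, are on chromosome 2.

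The count of 18 for the untreated lines dropped whichever of its 6 arrays was left out. It was 13 without HT29 replicate 1, 8 without HT29 replicate 2, 11 without HT29 replicate 3, and 10, 8 and 6 without HTOXAR3 replicates 1, 2 and 3. No share over all names is given for these fits, so the drop is not shown to be particular to the members. *NDUFS1*, *NDUFA10*, *NDUFB3* and *NDUFB1* kept their calls when any of these 6 arrays was left out. *COX7A2L* and *NDUFS8* lost theirs each time. With slide as a block *COX7A2L*, *NDUFB9* and *NDUFS3* were not called (BY adjusted p = 0.0683, 0.111 and 0.0556), and under the processed signal neither were *ATP5A1*, *ATP5S*, *ATP5SL* and *NDUFS4*.

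OXA alone was given to see how each line responds to the drug. In HT29, 6 members rose and 3 fell after OXA. The background was 8.33% of all names higher and 7.62% lower, or 15.9% and 15.1% of those well above background, whereas 7.32% and 3.66% of the members were called. The risers were 5 subunits of complex I (*NDUFS8*, *NDUFA12*, *NDUFA13*, *NDUFC1* and *NDUFC2*) and *UQCRC1* of complex III. The fallers were *UQCRFS1*, *COX7A2L* and the antisense RNA *NDUFA6-AS1*. Complex V had 0 called of 15, but *ATP5G3* (-0.37) and *ATP5J* (-0.29) were called lower under the processed signal. In HTOXAR3 2 members rose, *NDUFS8* and *NDUFA13*, and 2 fell, *UQCRFS1* and *COX7A2L*, each 2.44% of the members beside 5.31% higher and 4.94% lower over all names and 10.2% and 9.82% over those well above background. *NDUFB11* was at 0.41 there, short of the test (BY adjusted p = 0.0751), and was called higher under the processed signal (0.38).

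*UQCRFS1*, the Rieske iron-sulfur protein of complex III, read 15.35, 15.29 and 15.22 in untreated HT29 and 15.00, 14.87 and 14.92 after OXA. It read 15.47, 15.45 and 15.45 in untreated HTOXAR3 and 15.12, 14.96 and 15.12 after OXA. Treated and untreated arrays did not overlap in either line, and the falls were -0.36 (SE 0.06, BY adjusted p = 0.00385) and -0.39 (SE 0.06, BY adjusted p = 0.00382). *COX7A2L*, a relative of a complex IV subunit that joins complexes III and IV into supercomplexes, read 13.76, 13.78 and 13.73 in untreated HT29 and 13.35, 13.36 and 13.45 after OXA. In HTOXAR3 it went from 13.50, 13.47 and 13.49 to 13.18, 13.07 and 13.09, so that it fell by 0.37 on the log2 scale in both lines (-0.37, SE 0.06, BY adjusted p = 0.00255 and 0.00438). A second bright probe of *COX7A2L* gave -0.43 and -0.31.

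*NDUFS8*, the core subunit of complex I that holds the clusters just before the terminal one, read 14.68, 14.78 and 14.68 in untreated HT29 and 15.07, 15.10 and 15.16 after OXA. In HTOXAR3 it read 14.43, 14.38 and 14.42 without and 14.66, 14.75 and 14.79 with OXA. The rises were 0.40 (SE 0.06, BY adjusted p = 0.00203) and 0.32 (SE 0.06, BY adjusted p = 0.0189), and no treated array overlapped an untreated one of its line. *NDUFA13*, an accessory subunit also known as GRIM-19, rose by 0.31 in HT29 and by 0.31 in HTOXAR3. *UQCRC1*, a core protein of complex III on the matrix side, read 13.08, 12.97 and 13.18 in untreated HT29 and 13.57, 13.43 and 13.54 after OXA (0.44, SE 0.08, BY adjusted p = 0.00994), and 13.11, 13.24 and 13.23 against 13.30, 13.28 and 13.36 in HTOXAR3 (0.12, not called). The line difference in these responses was not called (-0.31, BY adjusted p = 1).

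The direction of the family as a whole after OXA could not be fixed. Its median log2 difference in HT29 was 0.09 after quantile normalisation and -0.10 under the processed signal, by which 2 members were called higher and 6 lower. Over the 17463 names well above background, that signal called 2750 higher and 2922 lower. In HTOXAR3 the medians were 0.05 and -0.01. The median over all names moved from -0.01 to -0.10 in HT29 and from 0.01 to -0.19 in HTOXAR3 between these scalings, while that over names well above background stayed at -0.02 in HT29 and went from -0.00 to -0.01 in HTOXAR3. *UQCRFS1*, *COX7A2L* and *NDUFS8* were called under both in both lines, and *UQCRC1* under both in HT29, but *NDUFA12*, *NDUFA13*, *NDUFC1* and *NDUFC2* in HT29 only under the first. For *NDUFC2* in HT29 the rise of 0.27 also lost its call with the replicate number as a block (BY adjusted p = 0.0505), and its other probe gave -0.88. In HTOXAR3 the count of 4 was 2 without untreated replicate 2 or 3 and without OXA replicate 2 or 3. The calls lost were those of *NDUFS8* and *NDUFA13*, while *UQCRFS1* and *COX7A2L* were called without any 1 array.

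**Figure D3:**
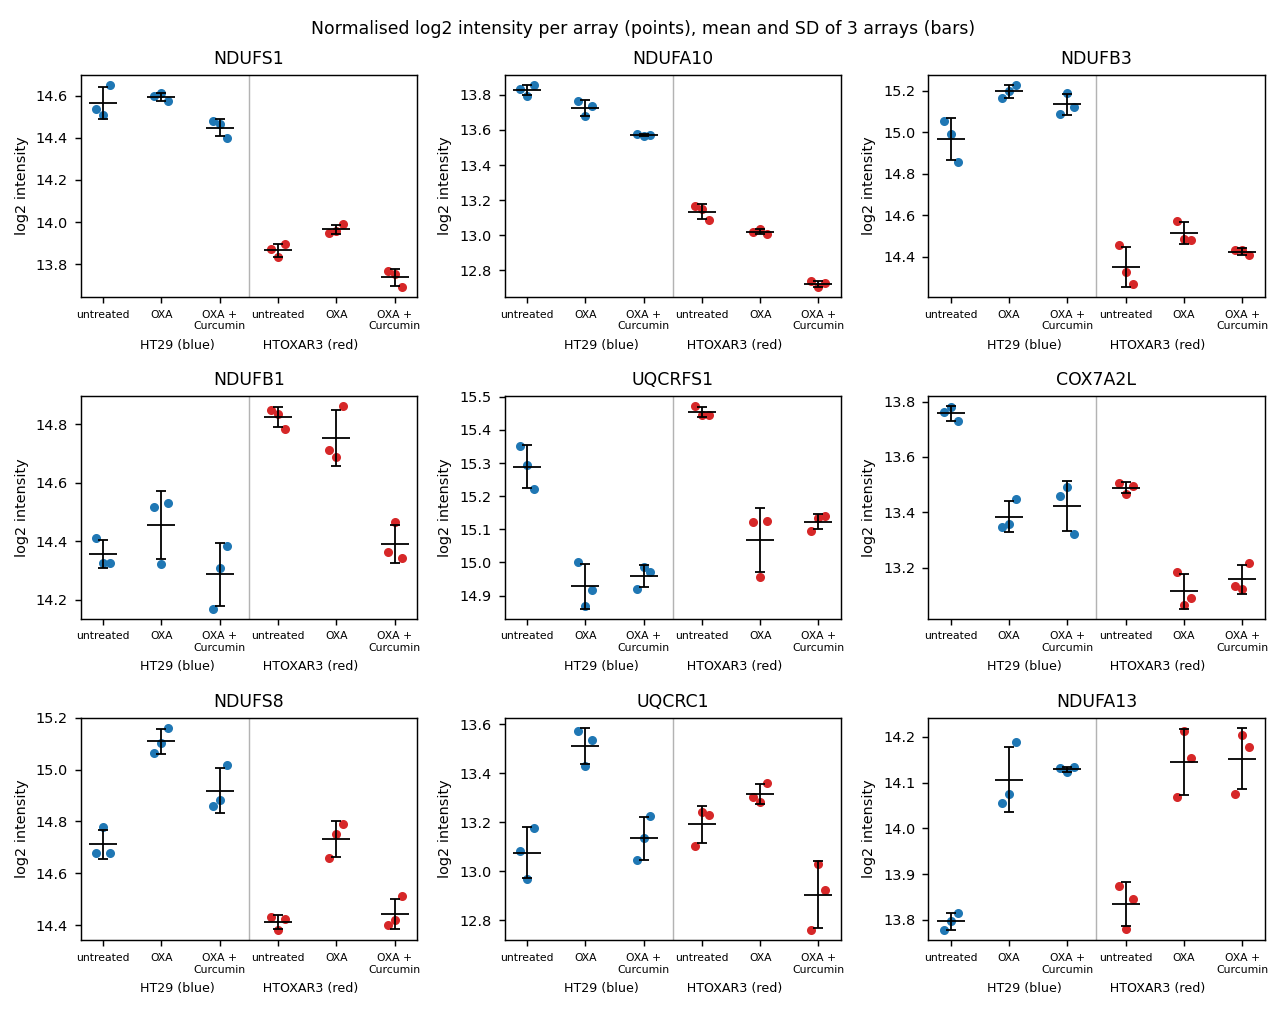
Log2 intensity (vertical axes) of 9 members on each of 18 arrays, as points by treatment within HT29 (blue) and HTOXAR3 (red), with the mean and SD of each 3 arrays as bars. *NDUFS1*, *NDUFA10* and *NDUFB3* separate the lines under every treatment, *NDUFB1* does so without drug, and *UQCRFS1* and *COX7A2L* fell after OXA in both lines.

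Among the partners of these subunits that are encoded in mitochondrial DNA, the calls after OXA were all falls. The array carries all 13 of them, named ND1 to ND6, ND4L, CYTB, COX1 to COX3, ATP6 and ATP8 (COX2 here is the mitochondrial gene, not the prostaglandin synthase). All were well above background on the 18 arrays. After OXA 8 of 13 fell in HT29 and 6 of 13 in HTOXAR3 and 0 rose, with medians of -0.43 and -0.38. The falls were 61.5% and 46.2% of the 13, beside 15.1% and 9.82% of all names well above background, and the difference from the nuclear subunits was not tested. After OXA plus Curcumin 9 and 6 fell (69.2% and 46.2%, beside 18% and 16.9% of those names), with medians of -0.49 and -0.36. Under the processed signal the falls after OXA numbered 10 and 7, beside 2922 and 1818 of the 17463 names well above background. *ND2*, a membrane subunit of complex I, read 14.30, 14.49 and 14.69 in untreated HT29 and 13.73, 13.63 and 13.59 after OXA (-0.84, SE 0.11, BY adjusted p = 0.000344). *ATP8*, a small subunit of complex V, read 15.56, 15.43 and 15.72 before and 15.06, 14.81 and 14.84 after (-0.67, SE 0.09, BY adjusted p = 0.000518), and in HTOXAR3 15.50, 15.60 and 15.49 before and 14.85, 14.80 and 15.01 after (-0.65, SE 0.09, BY adjusted p = 0.00134). *COX1*, the catalytic subunit of complex IV, was an exception, with 0.14 in HT29 and -0.09 in HTOXAR3, neither called. Between the untreated lines, and on adding Curcumin to OXA in either line, 0 of the 13 were called. Nuclear copies of mitochondrial DNA could share signal with these probes, which was not tested.

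**Figure D4:**
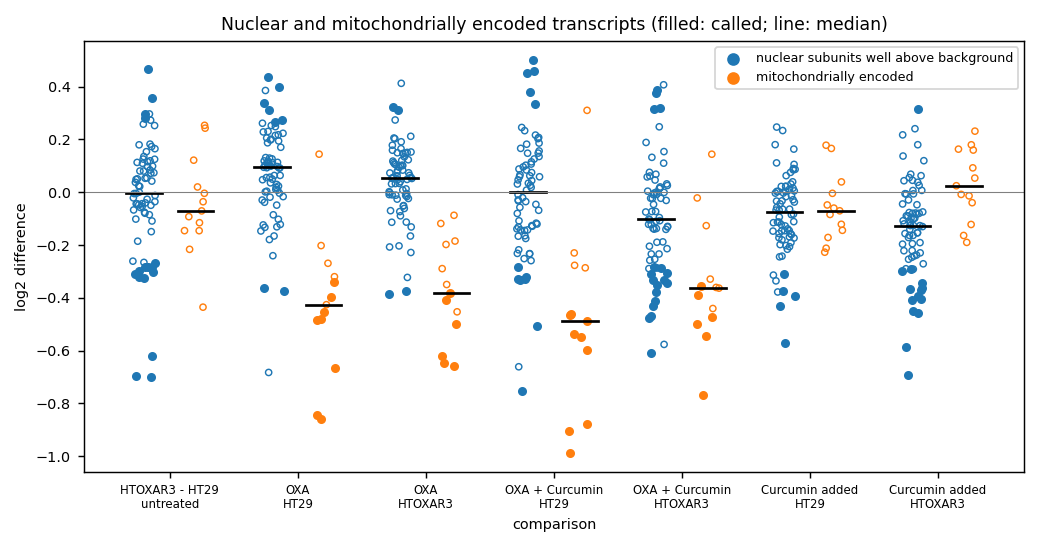
Log2 difference (vertical axis) in 7 comparisons (horizontal axis) of the 72 nuclear subunits well above background on all arrays (blue) and of the 13 mitochondrially encoded subunits (orange), as filled points where called and open points where not, with the median of each as a black line. In the columns for OXA the orange medians, -0.43 and -0.38, lie below the blue ones, and in those for the addition of Curcumin no orange point is filled.

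The combination with Curcumin was studied as a way to restore the response of the resistant line. After OXA plus Curcumin, 5 members were higher and 8 lower than in untreated HT29, and 4 were higher and 15 lower than in untreated HTOXAR3. In HT29 this was 6.1% and 9.76% of the members, beside 9.56% and 9.02% of all names and 17.6% and 18% of those well above background. In HTOXAR3 it was 4.88% and 18.3%, beside 8.82% and 8.64%, or 16.5% and 16.9%. Complex V gave 2 and 4 of the falls, *ATP5D* and *ATP5G1* in both lines and *ATP5A1* and *ATP5G2* in HTOXAR3, and none of its 15 subunits rose. Complex I gave 3 and 7 of the falls, complex III 1 and 2 and complex IV 1 and 1. In HTOXAR3 the falls were 26.7% of complex V, 25% of complex III and 19.4% of complex I. The median of complex V was -0.15 in HT29 and -0.20 in HTOXAR3, that of complex III 0.02 and -0.12, that of complex IV 0.10 and -0.05, and that of complex I 0.03 and -0.05. Scaled by the processed signal, the count in HT29 became 1 higher and 23 lower of 82, beside 2960 higher and 3621 lower of the 17463 names well above background. The median of all members there went from 0.01 to -0.15, while the median over names well above background went only from -0.04 to -0.06. That median of the members also changed sign between arrays left out, from -0.013 without OXA plus Curcumin replicate 3 to 0.030 without replicate 1. In HTOXAR3 the count under the processed signal became 3 higher and 18 lower, beside 3043 and 2931 of those 17463 names.

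*NDUFA4*, long listed with complex I and now assigned to complex IV (current symbol COXFA4), rose in both lines. It read 16.23, 16.18 and 16.05 in untreated HT29, 16.37, 16.42 and 16.42 after OXA and 16.63, 16.71 and 16.61 after OXA plus Curcumin. In HTOXAR3 the readings were 16.23, 16.23 and 16.16, then 16.25, 16.22 and 16.36, then 16.56, 16.56 and 16.65. Against the untreated cells the differences were 0.50 (SE 0.06, BY adjusted p = 0.000222) and 0.39 (SE 0.06, BY adjusted p = 0.0023). *NDUFB9* rose by 0.38 in both lines, *NDUFA13* by 0.33 and 0.32, and *NDUFB11* by 0.46 in HT29, while it was at 0.41 in HTOXAR3, just short of the test (BY adjusted p = 0.0542) and called there under the processed signal (0.36). The calls of *NDUFB9* and *NDUFC2* in both lines, and of *NDUFA13* and *NDUFB11* in HT29, were lost under the processed signal (*NDUFB9* 0.14 and 0.24, *NDUFA13* 0.23, *NDUFB11* 0.31), and that of *NDUFA4* was not. *UQCRFS1* and *COX7A2L* were at -0.33 against untreated cells in each line, and the addition of Curcumin to OXA gave them differences of 0.03 to 0.06, none called. *NDUFA6-AS1*, an RNA transcribed next to *NDUFA6* (current symbol NDUFA6-DT), read 8.58, 8.54 and 8.28 in untreated HT29, 7.63, 7.57 and 7.09 after OXA and 7.56, 7.65 and 7.42 after the combination (-1.04 and -0.92), but 2 of its 3 other probes were bright on every array and gave -0.21 and -0.00 after OXA.

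On adding Curcumin to OXA nearly all calls were falls. In HT29 5 members fell and 0 rose, and in HTOXAR3 13 fell and 1, *NDUFA4*, rose. The 5 were *ATP5D*, *ATP5G1* and *ATP5G2* of complex V and *NDUFS7* and *NDUFB10* of complex I, and all 5 were among the 13. The call of *ATP5G2* in HT29 was lost with slide as a block (-0.30, BY adjusted p = 0.0777) and under the processed signal (-0.28, BY adjusted p = 0.0759). The other 8 in HTOXAR3 were *NDUFA7*, *NDUFV1*, *NDUFB1*, *NDUFA10* and *NDUFS8* of complex I, *UQCRC1* and *UQCR10* of complex III and *ATP5A1*. The falls made up 6.1% and 15.9% of the members, and the rises 0% and 1.22%. Over all names 2.39% fell and 3.14% rose in HT29 and 4.41% fell and 4.43% rose in HTOXAR3. Over the names well above background these shares were 4.91% and 5.96%, and 8.81% and 8.46%. The members' medians were -0.06 and -0.11, beside -0.02 and -0.03 over the names well above background, and -0.08 and -0.13 under the processed signal. Without OXA plus Curcumin replicate 1 the median in HT29 was -0.034. The processed signal called 0 higher and 5 lower in HT29, with *UQCRC1* (-0.36) in place of *ATP5G2*, and 1 higher and 14 lower in HTOXAR3, with *ATP5S* (-0.32) added. Of the 17463 names well above background it called 979 higher and 1030 lower in HT29, and 1560 and 1640 in HTOXAR3. After quantile normalisation the probe used for *ATP5S* gave -0.03 there and its second probe -0.34. Both the scaling and the probe may thus have changed for this gene.

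*ATP5D* (current symbol ATP5F1D), the subunit delta of the central stalk of ATP synthase, carried the largest of these falls in both lines. It read 12.83, 12.83 and 12.88 in HT29 after OXA and 12.14, 12.32 and 12.36 after OXA plus Curcumin, and 13.34, 13.37 and 13.37 against 12.66, 12.71 and 12.63 in HTOXAR3. In HTOXAR3 the untreated arrays (13.27, 13.28 and 13.28) lay just below those after OXA, and in HT29 (13.00, 13.08 and 12.99) above them. The fall on adding Curcumin was -0.57 in HT29 (SE 0.06, BY adjusted p = 0.000256) and -0.69 in HTOXAR3 (SE 0.06, BY adjusted p = 3.32e-05), that is to 0.67 and 0.62 times the level after OXA alone. It kept its call when any 1 array was left out.

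*NDUFS7*, the core subunit of complex I that holds its terminal iron-sulfur cluster, read 13.16, 13.02 and 13.02 in HT29 after OXA and 12.48, 12.64 and 12.78 after the combination (-0.43, SE 0.07, BY adjusted p = 0.00962). In HTOXAR3 it went from 13.15, 13.15 and 13.16 to 12.53, 12.61 and 12.55 (-0.59, SE 0.07, BY adjusted p = 0.000533). The second probe of *NDUFS7* was well above background on 0 of 18 arrays and gives no level. *NDUFS7* and *ATP5D* are neighbours on chromosome 19 of GRCh37, with probes at 1393247 to 1393306 and 1242585 to 1244131, and of the 97 names around *NDUFS7* that were well above background 14 fell and 9 rose in HTOXAR3, with a median of -0.07, and 6 fell and 11 rose in HT29, with a median of 0.02.

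*NDUFB10*, of the membrane arm, read 14.48, 14.52 and 14.57 in HT29 after OXA and 14.004, 14.16 and 14.24 after the combination (-0.39, SE 0.06, BY adjusted p = 0.00891), and 14.78, 14.80 and 14.84 against 14.33, 14.40 and 14.32 in HTOXAR3 (-0.46, SE 0.06, BY adjusted p = 0.00169). *ATP5G1*, *ATP5G2* and *ATP5G3* encode the same mature subunit c, the unit of the rotating ring in the membrane. *ATP5G1* read 14.01, 14.06 and 14.17 before and 13.61, 13.73 and 13.78 after in HT29, and 14.18, 14.29 and 14.28 before and 13.83, 13.92 and 13.88 after in HTOXAR3, a fall of 0.37 in each line (-0.37, SE 0.06, BY adjusted p = 0.00974 and 0.00689). *ATP5G2* fell by 0.31 and 0.39 on the log2 scale. *ATP5G3* was not called, with -0.08 and -0.13. The subunits of the catalytic head differed in their calls. *ATP5A1*, subunit alpha, fell from 15.11, 15.13 and 15.13 to 14.79, 14.74 and 14.73 in HTOXAR3 (-0.36, SE 0.06, BY adjusted p = 0.00513) and went from 14.94, 14.96 and 14.87 to 14.69, 14.84 and 14.80 in HT29 (-0.15, not called), while *ATP5B*, the catalytic subunit beta, was not called in either (-0.17 in both).

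Further members called in HTOXAR3 were *NDUFA7* (-0.45), *UQCRC1* (-0.41), *NDUFV1*, which binds NADH and the flavin (-0.40), *UQCR10* (-0.34), *NDUFA10* (-0.30) and *NDUFS8* (-0.29). For *UQCR10* all 3 probes were bright and gave -0.34, -0.40 and -0.59. For *NDUFA10* the other probes, also bright, gave 0.03 and 0.08, and with the mean of its probes the call was lost (-0.06). *UQCRC1* had risen in HT29 after OXA, and after the combination it read 13.05, 13.13 and 13.22 there, next to the untreated 13.08, 12.97 and 13.18, and -0.38 below the cells on OXA (BY adjusted p = 0.0715). Of the 17 names of complex IV 0 were called lower in either line, with *COX8A* in HTOXAR3 just short of the test (-0.27, BY adjusted p = 0.0528) and called with a normexp offset of 16 or 50, with a filter on dim names and with slide as a block. Its medians were 0.02 and -0.03, those of complex III -0.02 and -0.05, those of complex V -0.15 and -0.17 and those of complex I -0.11 and -0.15, and differences between complexes were not tested.

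**Figure D5:**
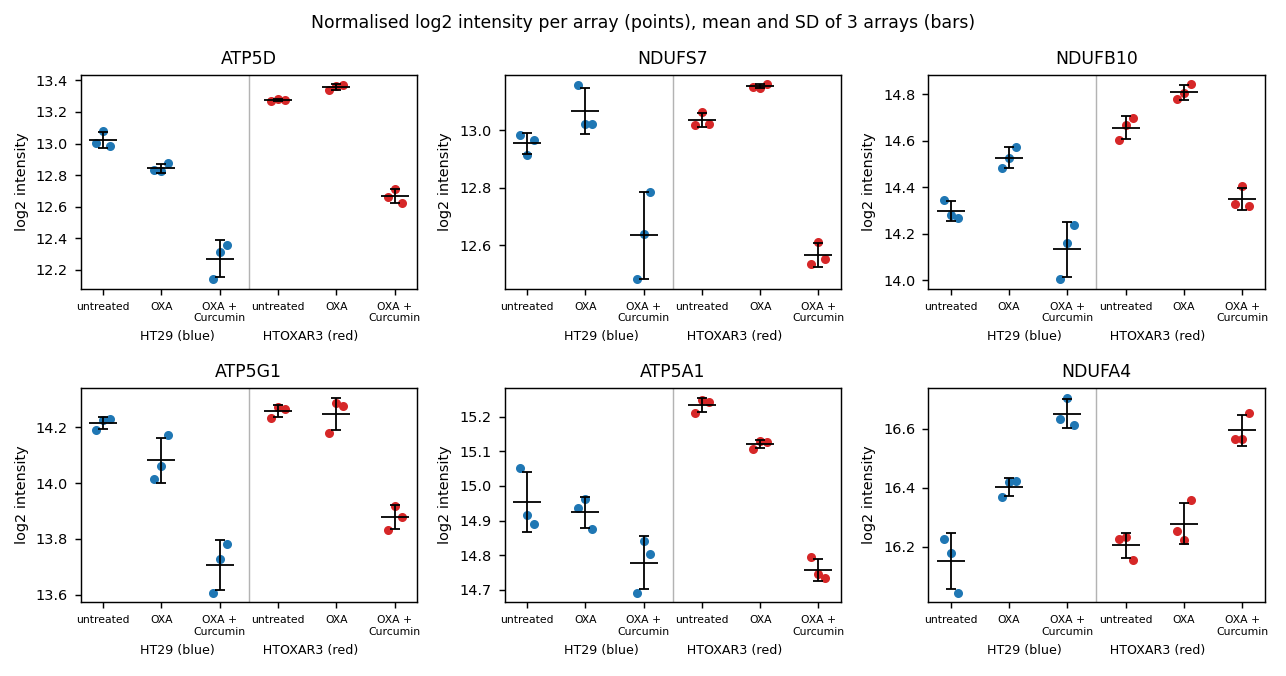
Log2 intensity (vertical axes) of 6 members on each of 18 arrays, as points by treatment within HT29 (blue) and HTOXAR3 (red), with the mean and SD of each 3 arrays as bars. For *ATP5D*, *NDUFS7*, *NDUFB10* and *ATP5G1* the 3 arrays with OXA plus Curcumin lie below the 3 with OXA in both lines, and for *NDUFA4* they lie above them.

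Leaving out arrays changed these counts. In HT29 the count of 5 became 3 without OXA replicate 1, 2 without OXA replicate 3 and 3 without OXA plus Curcumin replicate 1. In HTOXAR3 the count of 14 became 9 without OXA replicate 1 and without OXA plus Curcumin replicate 1 or 3. The calls of *NDUFB1* and *NDUFS8* in HTOXAR3 were lost whichever of the 6 arrays was left out, and those of *NDUFA4*, the 1 rise, *NDUFV1* and *UQCRC1* in HTOXAR3 and of *ATP5G2* in HT29 for 5 of the 6. Fitted on the 6 arrays of the comparison alone, limma called 0 members in either line, with 13 in HT29 and 28 in HTOXAR3 at an unadjusted p under 0.05 and 1 and 13 called after Benjamini-Hochberg adjustment. No shares over all names are given for this fit or with arrays left out, so the drops are not shown to be particular to the members. The rise of *NDUFA4* (0.32) and the fall of *NDUFB1* (-0.36) in HTOXAR3 lost their calls with the replicate number as a block (BY adjusted p = 0.0518 and 0.0711).

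The base composition of the probes was looked at after the values had been seen. Among members well above background, split into 3 like-sized classes by the GC content of all such probes, all 5 falls in HT29 and 8 of 13 in HTOXAR3 were among the 23 members whose probes lay above 45.0% GC, with member medians of -0.16 and -0.19, beside -0.06 and -0.08 for the 30 members at or below 40.0%. Over all names well above background the shares that fell were 3.92% at high and 6.12% at low GC in HT29, and 7.96% and 9.8% in HTOXAR3. The part of GC content in the members' falls was not tested.

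Promoters of members that moved together on adding Curcumin are shown for the falling *NDUFS7*, *NDUFB10*, *ATP5G1* and *ATP5G2*, with that of the rising *NDUFA4* for contrast, as the 250 bases before the RefSeq start of each gene on GRCh38.p14, 5′ to 3′ on the strand of the gene. ATP5F1D was not matched in the promoter table. Capitals mark complete matches, on either strand, to the motifs searched, which were GCGCATGC (a core of nuclear respiratory factor 1), CCGGAAG (ETS family, to which GABPA belongs), AAGATGGC (YY1), GGGCGG (GC box) and TGACGTCA (cAMP response element).
NDUFS7, chr19:1383657-1383906, plus strand: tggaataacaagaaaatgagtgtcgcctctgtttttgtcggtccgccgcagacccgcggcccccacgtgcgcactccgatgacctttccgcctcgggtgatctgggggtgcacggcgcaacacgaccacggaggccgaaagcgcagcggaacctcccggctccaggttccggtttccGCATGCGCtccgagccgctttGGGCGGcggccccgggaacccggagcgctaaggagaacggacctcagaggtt
NDUFB10, chr16:1959288-1959537, plus strand: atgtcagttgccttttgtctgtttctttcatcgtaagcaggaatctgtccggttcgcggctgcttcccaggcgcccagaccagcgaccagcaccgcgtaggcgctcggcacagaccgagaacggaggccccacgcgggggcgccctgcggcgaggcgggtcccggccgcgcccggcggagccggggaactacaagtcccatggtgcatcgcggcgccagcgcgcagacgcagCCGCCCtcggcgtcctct
ATP5G1 (RefSeq ATP5MC1), chr17:48892537-48892786, plus strand: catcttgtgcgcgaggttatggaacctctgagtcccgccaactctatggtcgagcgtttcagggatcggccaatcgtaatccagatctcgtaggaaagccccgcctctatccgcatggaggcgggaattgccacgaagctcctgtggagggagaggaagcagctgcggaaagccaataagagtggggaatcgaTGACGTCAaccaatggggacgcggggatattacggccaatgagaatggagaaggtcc
ATP5G2 (RefSeq ATP5MC2), chr12:53676084-53676333, minus strand: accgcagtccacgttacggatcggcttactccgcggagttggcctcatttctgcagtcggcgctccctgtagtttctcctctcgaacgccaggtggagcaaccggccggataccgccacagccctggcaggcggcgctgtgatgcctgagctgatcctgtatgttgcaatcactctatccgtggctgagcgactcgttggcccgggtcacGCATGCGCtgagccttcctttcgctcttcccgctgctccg
NDUFA4 (RefSeq COXFA4), chr7:10940154-10940403, minus strand: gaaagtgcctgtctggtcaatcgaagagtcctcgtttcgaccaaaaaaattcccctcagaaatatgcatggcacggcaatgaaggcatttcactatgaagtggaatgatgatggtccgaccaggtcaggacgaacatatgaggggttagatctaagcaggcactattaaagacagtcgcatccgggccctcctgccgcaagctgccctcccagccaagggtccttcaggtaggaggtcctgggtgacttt
*NDUFS7* and *ATP5G2* hold the nuclear respiratory factor letters, *NDUFS7* and *NDUFB10* a GC box, *ATP5G1* the cAMP response element, and *NDUFA4* none of these in this window. A further GC box of *ATP5G2* crosses the start and a YY1 match of *NDUFS7* lies past it, and neither is in capitals. The GC content of the 250 bases was 65.6% for *NDUFS7*, 69.6% for *NDUFB10*, 56.0% for *ATP5G1*, 62.4% for *ATP5G2* and 51.6% for *NDUFA4*. Of the 76 subunits 64 were matched in the RefSeq table. Over windows of 300 bases that reach 50 bases past the start, the nuclear respiratory factor letters were in 17.2% of the 64 subunit promoters and 3.05% of all 35116, the ETS letters in 25% and 10.3%, the YY1 letters in 15.6% and 2.89%, the GC box in 57.8% and 45.0%, and the cAMP response element in 6.25% and 1.85%. No matches overlap each other in the printed windows, and a match is a description of the letters only.

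Whether the lines differ in response was tested with interaction terms, and 0 of 82 members were called for OXA, for OXA plus Curcumin, or for the addition of Curcumin, the last added after the values had been seen. Over all names 1.01%, 0.856% and 0.135% were called. At an unadjusted p under 0.05, 6, 11 and 4 of the 82 members differed, beside 4944, 5202 and 3526 of 36203 names. With Benjamini-Hochberg in place of BY adjustment the counts were 0, 1 and 0, the 1 being *UQCR10* (-0.28, SE 0.07, adjusted p = 0.0382). Over all names these counts were 1087, 1244 and 323. The falls of *ATP5D* and *NDUFS7* in HTOXAR3 are thus not shown to be larger than those in HT29. All 3 interactions compare different OXA doses as well as lines.

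Several subunits of complex IV exist as tissue forms, with versions known from heart and skeletal muscle or from testis beside the common ones. *COX8C*, a testis form, was well above background on 0 of 18 arrays, *COX7B2*, also of testis, on 1 and *COX7A1*, a muscle form, on 2, so these have no usable level. *NDUFA4L2*, a hypoxia-induced relative of *NDUFA4*, was above background on 10 arrays, 2 of each 3 in every group but HTOXAR3 after OXA plus Curcumin, where it was on 0, and it ran from 4.39 to 6.75 in untreated HT29. The muscle form *COX6A2* lay between 5.41 and 6.34 on all arrays with no call. *COX6B2*, the testis form of *COX6B1*, read 13.35, 13.15 and 13.67 in untreated HT29 and 12.72, 12.75 and 12.72 after OXA plus Curcumin, without overlap but short of the test (-0.66, SE 0.18, BY adjusted p = 0.13), and its second probe gave -0.12. Under the processed signal it was called (-0.74). The common forms *COX5A*, *COX5B*, *COX6B1* and *COX7B* had 0 calls in the 7 comparisons, with log2 differences from -0.11 to 0.13. *COX6A1* reached 0.23 and 0.25 after the combination, the latter with BY adjusted p = 0.0424 but under the fold minimum, and *COX7A2* was at -0.27 in untreated HTOXAR3 (BY adjusted p = 0.06). *COX7C* went the other way there (0.30, BY adjusted p = 0.0602). With a normexp offset of 16 or 50 or a filter on dim names both were called, and *COX7C* also under the processed signal (0.27). *COX6C* read 15.76, 15.68 and 15.76 in untreated HT29 and 15.45, 15.41 and 15.38 in untreated HTOXAR3 (-0.32, SE 0.06, BY adjusted p = 0.00845).

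Probes of the same name did not always move together. For *NDUFC2* the brighter probe rose after OXA plus Curcumin (0.45 in HT29 and 0.32 in HTOXAR3), while the second, on another transcript and bright on all arrays, gave -0.95 and -0.80. For *UQCRB* the brighter probe gave 0.07 and -0.02 after the combination and the dimmer one -0.94 and -1.07, and for *ATP5E* 0.12 and -0.86 after OXA in HT29. For *NDUFB6* both probes were bright and close, with -0.29 and -0.32 on adding Curcumin in HTOXAR3, and for *ATP5I* both gave -0.25. *UQCRBP1* and *ATP5L2* are near copies of *UQCRB* and *ATP5L*, so that their signals may be shared and are uncertain.

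Complex II, whose subunits have other names, and the electron carriers around the complexes were taken from a written list. *SDHB*, the iron-sulfur subunit of succinate dehydrogenase, read 13.15, 13.17 and 13.14 in untreated HT29, 13.52, 13.56 and 13.56 after OXA and 13.41, 13.55 and 13.44 after the combination (0.39 and 0.31 over untreated), and was 0.34 and 0.28 higher in HTOXAR3. *SDHA* was lower in untreated HTOXAR3 (-0.35), and *SDHC* and *SDHD* had 0 calls. *CYCS*, cytochrome c itself, read 14.47, 14.52 and 14.47 in untreated HT29, 14.02, 14.13 and 14.03 after OXA and 13.64, 13.84 and 13.69 after OXA plus Curcumin (-0.42 and -0.76), and in HTOXAR3 the differences were -0.41 and -0.52. *CYC1*, cytochrome c1 of complex III, fell after the combination (-0.41 and -0.52) and was lower in untreated HTOXAR3 (-0.35). Both come from a list with 7 names on the array, of which 1, *C14orf2* (0.77), was higher and 1 lower in untreated HTOXAR3. After OXA 0 rose and 1 fell in each line (14.3%), beside 15.1% and 9.82% lower of all names well above background. After the combination 0 rose and 3 fell in each (42.9%), *C14orf2* among them (-0.36 and -0.40), beside 18% and 16.9%. On adding Curcumin 0 of the 7 rose and 1 fell in HT29, and 1 rose and 1 fell in HTOXAR3. Each call is 14.3% of that list, beside 5.96% and 4.91%, and 8.46% and 8.81%, of all names well above background on adding Curcumin. On adding Curcumin *CYCS* fell in HT29 (-0.34) and *CYC1* in HTOXAR3 (-0.39), and the line differences there were not called (0.23 for *CYCS* and -0.10 for *CYC1*, both with BY adjusted p = 1).

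Factors that regulate these genes or mitochondrial DNA formed a list of 19, of which 16 were well above background on all arrays. After OXA 1 rose and 4 fell in HT29, and 0 rose and 3 fell in HTOXAR3, the falls being 21.1% and 15.8% of the list beside 15.1% and 9.82% of all names well above background. After the combination 1 rose and 5 fell in HT29 and 2 rose and 5 fell in HTOXAR3, with medians of -0.15 and 0.01, which was 5.26% and 26.3%, and 10.5% and 26.3%, beside 17.6% and 18%, and 16.5% and 16.9%, of all names well above background. On adding Curcumin 1 rose and 1 fell in HT29 and 2 rose and 1 fell in HTOXAR3, the risers being *GABPB1*, a partner of GABPA, in both lines (0.45 and 0.51) and *TFB2M* in HTOXAR3 (0.40), and these shares, 5.26% to 10.5% by line and direction, stand beside 4.91% to 8.81% of all names well above background. *PPARGC1B*, a coactivator of mitochondrial biogenesis, read 9.92, 9.94 and 9.79 in untreated HT29, 9.18, 9.15 and 8.97 after OXA and 8.48, 8.48 and 8.58 after the combination, and was called in all 6 treatment comparisons, from -1.37 to -0.41. *GABPA*, the ETS factor named above, fell after OXA in HT29 (-0.85) and HTOXAR3 (-0.74), as did *TFB2M*, needed to start transcription of mitochondrial DNA (-0.68 and -0.69). *TFAM*, which packs and transcribes that DNA, fell after the combination (-0.58 and -0.63). *NRF1* had 0 calls, and *PPARGC1A* was well above background on 0 of 18 arrays.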

How the data were processed

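RNA of 18 samples, 3 in each of 6 groups, was hybridised to 1-colour Agilent arrays. The authors deposited scanner output of Feature Extraction 10.7.3.1 (per the submitters' processing notes), from which the spots' mean and background intensity were used, and the processed signal intensity as an alternative. The study's methods name normexp and quantile normalisation, and the normexp offset is not given in the sources used here, so 0 was used, with 16 and 50 as alternatives. In R 4.3.3 with limma 3.58.1, controls were removed after normexp, intensities were quantile normalised on the log2 scale, spots flagged as outliers were left out, spots of a probe were averaged, and the probe of highest mean stood for a gene name. No filter on low values was applied. All 18 arrays entered 1 limma fit with 6 group terms. Calls needed a BY adjusted p below 0.05 over all names and a fold change above 1.2. The procedure was tested on simulated data. The number of arrays limits the precision, and p-values measure only the spread between these samples. The members and gene lists were chosen with earlier results of these data known, as were the members always named. Beside them, the members named are the largest called changes of each comparison and others chosen after their values were seen. Probe positions are those of the files (GRCh37).

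Replicate numbers are shared by the groups, and the labels do not say what a number marks. Over all names, same-numbered arrays deviated together in every pair of 2 comparisons, OXA in HT29 (correlations 0.117 to 0.242) and Curcumin added in HTOXAR3 (0.109 to 0.195). Over names well above background this held for OXA in HT29 (0.324 to 0.413) and the addition of Curcumin in HT29 (0.126 to 0.264). All names were taken to decide, after both sets of correlations had been seen but before blocked calls were compared. Alternatives were other offsets, scaling, adjustment, probe choice and filters, slide and replicate blocks, fits of the groups compared alone, and leaving out each array. Under other offsets and under the processed signal the probe of highest mean was picked anew, so a changed call can reflect another probe.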

Additional observations from a re-analysis of the deposited data

Results flagged for a closer look

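In 3 of the 78 members well above background, the groups compared did not overlap in either line and differed in opposite directions. With 3 arrays in each group, members without a call often showed no overlap too. No share over all names is given, so the count of 3 cannot be judged against it. After OXA, *ATP5D* was at -0.179 in HT29 and 0.083 in HTOXAR3, and *NDUFA11* at -0.131 and 0.205. After OXA plus Curcumin, *NDUFA2* was at 0.203 in HT29 and -0.104 in HTOXAR3. None of these differences was called in either line, and the interaction terms gave 0.26 (BY adjusted p = 1) for *ATP5D*, 0.34 (BY adjusted p = 1) for *NDUFA11* and -0.31 (BY adjusted p = 0.949) for *NDUFA2*, also without a call. The doses of OXA differed between the lines.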

How the results depend on the processing

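Fitted on the arrays compared alone, limma called 2 members between the untreated lines, 0 after OXA in each line, 1 and 4 after OXA plus Curcumin in HT29 and HTOXAR3, and 0 on adding Curcumin in each. Shares over all names are not given for these fits or with an array left out, so drops are not shown to be particular to the members. At an unadjusted p under 0.05 the comparisons with 0 had 25, 20, 13 and 28 members, and after Benjamini-Hochberg adjustment 7, 5, 1 and 13. With that adjustment in the fit of all arrays, 7 members were called after OXA in HTOXAR3 and 1 in the line difference for the combination. Over all 36203 names these counts were 5998 and 1244. Under the processed signal the members' medians were -0.10 and -0.011 after OXA in HT29 and HTOXAR3, -0.15 and -0.14 after the combination, and 0.061 and 0.038 for the line differences in these, against -0.041 and -0.068 with quantile normalisation, and 24 members were called after the combination in HT29. In that comparison the processed signal called 2960 higher and 3621 lower of the 17463 names well above background. With the mean of all probes, the medians were 0.064 after OXA and -0.034 after the combination in HT29. *NDUFC2* turned to -0.30 and -0.40 after OXA and to -0.25 and -0.24 after the combination in HT29 and HTOXAR3, and *NDUFS7* in HTOXAR3 to 0.10 (combination) and 0.15 (Curcumin added), where the probe averaged in was not well above background. Leaving out each array gave 6 to 13 calls between the untreated lines, 2 to 4 after OXA in HTOXAR3, and 2 to 5 and 9 to 11 on adding Curcumin in HT29 and HTOXAR3. Medians then ran from 0.057 to 0.104 after OXA in HT29, from -0.106 to -0.091 after the combination in HTOXAR3, from -0.104 to -0.052 for its line difference and from -0.071 to -0.025 for that of adding Curcumin. They ran from 0.0315 to 0.055 after OXA in HTOXAR3 and from -0.047 to -0.0238 for the line difference in OXA. Between the untreated lines the median changed sign, from -0.0205 to 0.0048. The slide block cost *NDUFA11* and *NDUFS7* their calls after the combination in HT29 (BY adjusted p = 0.157 and 0.0865). The replicate block moved no count by over 1.5 times. Where the numbers did not pair the samples it cost *ATP5S*, *COX7A2L*, *NDUFB9* and *NDUFS4* between the untreated lines and *NDUFA11* and *NDUFS7* after the combination in HT29 (BY adjusted p = 0.0534 and 0.0552) their calls, and added *NDUFA6-AS1* after OXA in HTOXAR3 (0.0286). The cause of these changes was not tested.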

Other observations

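Genes that serve the complexes without belonging to them moved in both directions. Of 42 assembly factors and inhibitors on the array, 6 were called higher and 12 lower in HT29 after OXA plus Curcumin, and 3 and 9 in HTOXAR3. These were 14.3% and 28.6% in HT29, beside 17.6% and 18% of all names well above background, and 7.14% and 21.4% in HTOXAR3, beside 16.5% and 16.9%. *NUBPL*, which delivers iron-sulfur clusters to complex I, was among the lowest (-0.98 and -0.94). After OXA alone 6 of the list rose and 7 fell in HT29 (14.3% and 16.7%), beside 15.9% and 15.1% of all names well above background. In HTOXAR3 3 rose and 5 fell (7.14% and 11.9%), beside 10.2% and 9.82%. Among them *PET117*, a complex IV assembly factor, fell in both lines (-0.79 and -0.70), and *COX19* rose in HT29 (0.91). On adding Curcumin in HTOXAR3, *UQCC2* (-0.53) and *TTC19* (-0.50), both assembly factors of complex III, fell. Of the list, 2 were called higher and 6 lower there (4.76% and 14.3%), beside 8.46% and 8.81% of all names well above background.

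Of 79 proteins of the mitochondrial ribosome, 9 were called higher and 18 lower in HT29 and 6 and 16 in HTOXAR3 after OXA plus Curcumin. That is 11.4% and 22.8% in HT29, beside 17.6% and 18% of all names well above background. In HTOXAR3 it is 7.59% and 20.3%, beside 16.5% and 16.9%. After OXA alone 11 and 10 (13.9% and 12.7%), and 8 and 8 (10.1% each), were called, beside 15.9% and 15.1% of the names well above background in HT29 and 10.2% and 9.82% in HTOXAR3. *MRPL12* fell in HT29 after OXA (-1.94) and was 0.67 higher when Curcumin was added. Of 16 genes of the tricarboxylic acid cycle and pyruvate dehydrogenase, 1 was called higher and 6 lower in HT29 after the combination. That was 6.25% and 37.5%, beside 17.6% and 18% of all names well above background. In HTOXAR3 1 and 5 were called (6.25% and 31.2%), beside 16.5% and 16.9%. The subunits of succinyl-CoA ligase parted, with *SUCLG2* lower (-1.24 and -1.40) and *SUCLA2* higher (0.73 and 0.69).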
